A study of Mus musculus with 8 samples.

Results

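The mitosis genes described here are 47 genes of the G2 and M phases of the cell cycle, chosen by name from the 55421 genes of the count table. All 47 were found, each in 1 row, and all 47 passed the filter on low counts together with 20477 genes in all. They were read in 8 RNA-seq libraries of spermatogonial stem cell (SSC) cultures, 2 for each of 4 conditions. The cultures were derived from testes of C57BL/6XDBA/2 pups aged 6 days and grew on irradiated mouse embryonic fibroblasts, so a library holds RNA of feeder cells as well as of germ cells. Vehicle cultures (Veh) stayed in complete SSC medium. RA cultures received 100 nM retinoic acid in that medium, nutrient restriction cultures (NR) were kept in 10% complete medium with 90% Earle's Balanced Salt Solution, and NRRA cultures received 100 nM retinoic acid in the restricted medium, each for 48 h. The study treats the samples of a condition as independent replicates, and no source used here says from how many animals they came.

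Entry into mitosis is driven by the kinase Cdk1 bound to cyclin A2, B1 or B2 and activated by Cdc25 phosphatases. Plk1 and the Aurora kinases then build the spindle, condensin and topoisomerase II compact the chromosomes, and the kinetochore attaches them to microtubules under the watch of the spindle checkpoint. The anaphase-promoting complex ends mitosis by degrading cyclin B and securin. Transcripts of these genes accumulate in G2 and M in dividing cells, among them spermatogonia, which divide mitotically until they enter meiosis.

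Library totals ranged from 19261333 to 30023585 counts, and the mitosis genes took 0.314% to 0.397% of them. Values are CPM, counts scaled to a common library total and corrected for library composition. Differences are log2 fold changes ± SE from edgeR's quasi-likelihood fit, n = 2 libraries per condition, and a gene was called at an adjusted p under 0.05 over all tested genes. Replicates were close, with a common biological coefficient of variation of 3.35%, so that differences much smaller than 2-fold passed the test, and no mitosis gene reached a 2-fold difference in any comparison. Levels per length of the merged exons of a gene, which can exceed the length of a transcript, ran in Veh from 1.37 CPM per kilobase for Cdc25c. The highest was 61.8 for Cdc20, and the median was 10.9. The germ cell markers Ddx4 and Dazl were present in every library, at 131 to 191 and 299 to 467 CPM. Summed over 9 fibroblast markers, the level was 11700 to 11841 CPM in Veh, 9282 to 9990 in RA, 22208 to 23340 in NR and 19570 to 20245 in NRRA. The markers did not move together. Col1a1, Col1a2 and Col3a1 rose in NR (1.07, 1.27 and 1.54 log2 against Veh) and in NRRA (1.02, 0.98 and 1.41). S100a4 fell in NR (-0.87) and NRRA (-2.32), and Lum (-0.74) and Fbln2 (-0.24) fell in NRRA. The sum over 5 leukocyte markers was 203 to 288 CPM. Of 5 Sertoli cell markers 4 were tested, and their sum lay between 35.8 and 45.2 CPM over the Veh and NR libraries, was lower with RA and was lowest under NRRA, at no more than 13.4 CPM. Most of that sum was Sox9, which fell from 31.2 and 32.6 CPM in Veh to 14.7 and 14.7 with RA and to no more than 7.29 under NRRA (-2.16 ± 0.09 log2), while the defining marker Amh was at 0.051 to 0.25 CPM in all libraries. Of the 4 tested Sertoli cell markers 1 was called lower and 1 higher in RA against Veh. In NRRA Sox9 was called lower and Cldn11 higher (1.58). The part of these shifts in the results was not tested. Fewer cells of a type and less RNA per cell cannot be told apart in these bulk libraries.

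Nutrient restriction alone lowered most of the genes that drive entry into mitosis. Of the 47 mitosis genes, 26 (55.3%) fell and 8 (17.0%) rose in NR relative to Veh, against 22.2% lower and 21.7% higher among all tested genes. Their median difference was -0.23 log2, beside 0.01 over all tested genes. Mean levels were lowest in NR, among the 4 conditions, for 30 of the 47 genes, in the same NR libraries that gave the falls. The share of all tested genes lowest in NR was not computed. Of the 9 fibroblast markers 7 rose and 1 fell in the same comparison, and all 5 germ cell markers rose. Of 6 markers of differentiating spermatogonia 5 rose, among them Stra8 (3.44) and Kit (1.91), and 1 fell. Of 8 markers of undifferentiated spermatogonia 4 fell and 2 rose. The part of these shifts in cell markers in the result for the mitosis genes was not tested.

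In the group of Cdk1, cyclins and Cdc25 phosphatases, 5 of 6 genes fell in NR, with Cdc25c the exception. Cdk1, the kinase of mitotic entry, measured 34.3 and 34.9 CPM in the Veh libraries, 32.6 and 33.1 with RA, 24.5 and 24.5 under NR, and 25.7 and 25.9 under NRRA. The NR libraries lay below both Veh libraries, with a difference of -0.50 ± 0.07 (edgeR adjusted p = 1.07e-06). Ccna2, cyclin A2, was at 105 and 113 CPM in the Veh libraries, 109 and 107 with RA, 74.0 and 75.7 under NR, and 99.8 and 106 under NRRA. It was lowest in NR (-0.54 ± 0.05), and neither RA nor NRRA was called against Veh. Ccnb1, cyclin B1, stood at 92.7 and 92.4 CPM in the Veh libraries, 75.9 and 78.4 with RA, 72.1 and 69.1 under NR, and 68.0 and 72.8 under NRRA. Veh stood above every treated library, and NR and NRRA overlapped. Ccnb2, cyclin B2, measured 42.7 and 38.6 CPM in the Veh libraries, 40.3 and 39.0 with RA, 30.4 and 32.2 under NR, and 32.2 and 34.0 under NRRA. The NR and NRRA libraries lay below those of Veh and RA. Cdc25b, a phosphatase that activates Cdk1, was at 35.5 and 31.9 CPM in the Veh libraries, 37.6 and 37.8 with RA, 21.4 and 20.9 under NR, and 30.2 and 28.4 under NRRA. Its fall in NR was the largest among the mitosis genes, at -0.68 ± 0.07 (edgeR adjusted p = 3e-08). Cdc25c, a second phosphatase of the family, stood at 6.54 and 6.98 CPM in the Veh libraries, 11.9 and 11.3 with RA, 8.19 and 8.28 under NR, and 13.1 and 12.8 under NRRA. It was higher in RA and NRRA than in Veh without overlap, whereas Cdc25b fell in NR and NRRA and was not called in RA (0.16 ± 0.07), where both of its libraries lay above Veh. The NR value of Cdc25c, 0.29 ± 0.12, was not called (edgeR adjusted p = 0.0542).

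**Figure D1:**
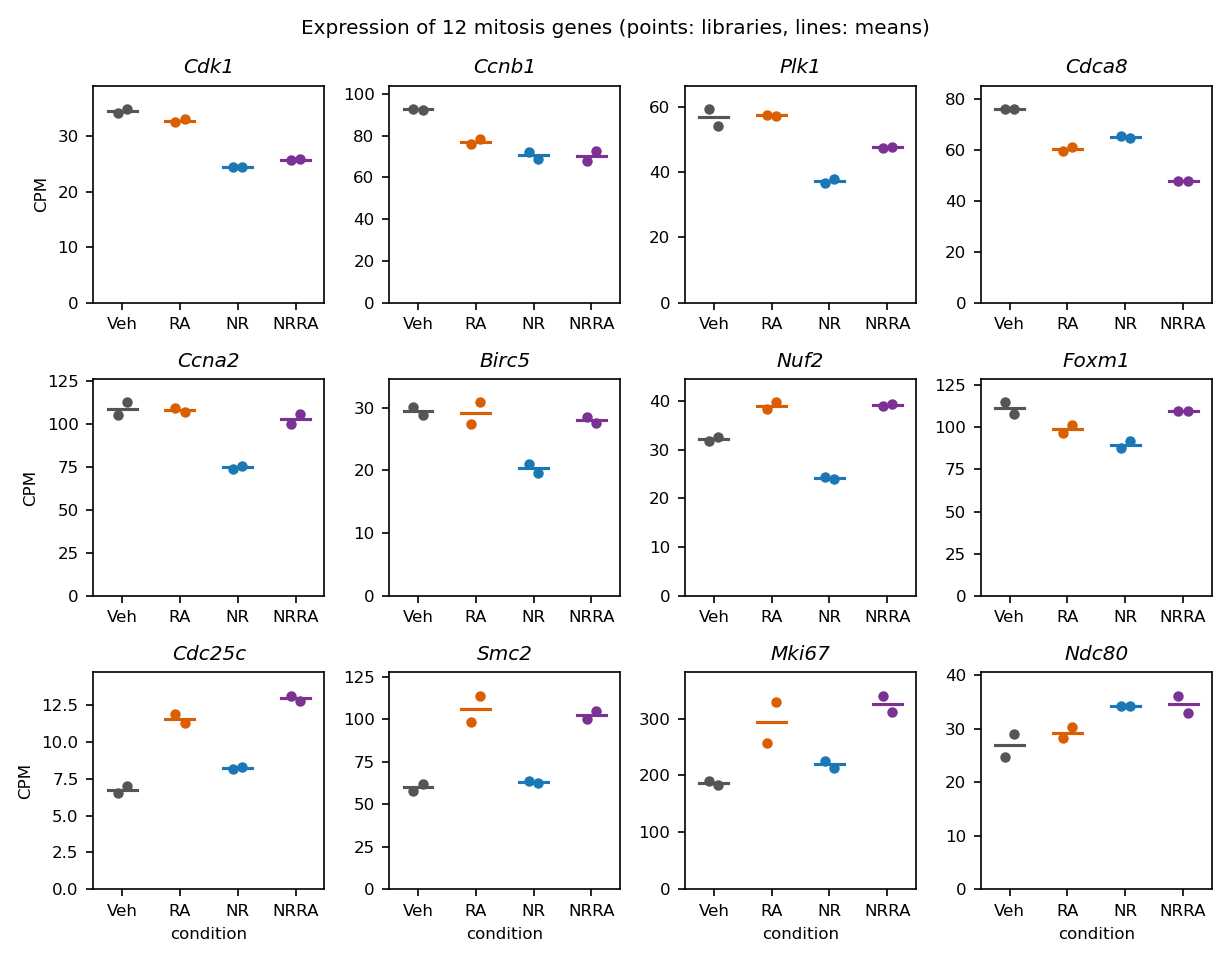
Expression of 12 mitosis genes in CPM (vertical axis, starting at 0) in the 4 conditions (horizontal axis). Points are the 2 libraries of a condition and lines are their means. Cdk1, Ccna2, Birc5 and Nuf2 are lowest in NR, whereas Cdc25c, Smc2 and Mki67 are highest in RA and NRRA.

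Kinases of spindle assembly also fell in NR. Plk1, a kinase of centrosome maturation and mitotic entry, measured 59.3 and 54.2 CPM in the Veh libraries, 57.5 and 57.2 with RA, 36.7 and 37.9 under NR, and 47.4 and 47.8 under NRRA. NR was lowest by -0.61 ± 0.06 (edgeR adjusted p = 7.11e-09), and NRRA lay between NR and Veh. Aurka, the centrosomal Aurora kinase, was at 42.8 and 39.0 CPM in the Veh libraries, 33.4 and 32.8 with RA, 34.5 and 32.0 under NR, and 31.6 and 33.6 under NRRA. All 6 treated libraries lay below both Veh libraries and overlapped among themselves. Tpx2, the activator of Aurka on spindle microtubules, fell by 0.32 ± 0.05 log2 in NR, while Hmmr, a spindle microtubule protein, rose by 0.24 ± 0.08 and Nusap1 was not called. All 4 members of the chromosomal passenger complex, which corrects faulty attachments and guides cytokinesis, fell in NR. Aurkb, its kinase, stood at 41.1 and 42.5 CPM in the Veh libraries, 43.4 and 37.9 with RA, 33.1 and 33.7 under NR, and 41.4 and 39.8 under NRRA. Birc5, or survivin, measured 30.1 and 28.8 CPM in the Veh libraries, 27.4 and 30.8 with RA, 21.1 and 19.6 under NR, and 28.5 and 27.5 under NRRA. For both genes the NR libraries lay below all other libraries, with differences from Veh of -0.32 ± 0.07 and -0.54 ± 0.08. Incenp, the scaffold of the complex, fell by 0.44 ± 0.05 log2 and Cdca8, or borealin, by 0.22 ± 0.05 log2.

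Among genes of mitotic exit, 3 of 5 fell in NR. Cdc20, the activator of the anaphase-promoting complex in mitosis, was at 119.9 and 111 CPM in the Veh libraries, 104 and 98.1 with RA, 101 and 98.0 under NR, and 90.1 and 91.9 under NRRA. Fzr1, its activator in late mitosis and G1, stood at 77.1 and 73.1 CPM in the Veh libraries, 67.4 and 68.4 with RA, 65.6 and 62.2 under NR, and 67.6 and 71.8 under NRRA. Ube2c, its ubiquitin-conjugating enzyme, measured 38.0 and 38.4 CPM in the Veh libraries, 34.1 and 35.4 with RA, 30.1 and 25.7 under NR, and 30.8 and 29.8 under NRRA. Each of these 3 was lower in all treated libraries than in both Veh libraries, with NR differences of -0.22 ± 0.05, -0.24 ± 0.06 and -0.46 ± 0.07. Pttg1, or securin, which holds separase inactive, was at 13.5 and 13.9 CPM in the Veh libraries, 14.9 and 14.2 with RA, 12.4 and 12.9 under NR, and 15.8 and 14.3 under NRRA. It was not called against Veh in any condition. Espl1, separase, which cleaves cohesin at anaphase, stood at 157 and 142 CPM in the Veh libraries, 121 and 118 with RA, 155 and 155 under NR, and 119 and 114 under NRRA. Veh and NR overlapped, and both libraries of RA and of NRRA were lower. Of the spindle checkpoint genes, Mad2l1 and the kinase gene Bub1b fell in NR, Ttk was not called, and Bub1 rose. Mad2l1, a core inhibitor of Cdc20, measured 58.2 and 55.4 CPM in the Veh libraries, 59.6 and 57.4 with RA, 45.4 and 47.7 under NR, and 52.7 and 54.9 under NRRA. Bub1, a checkpoint kinase at the kinetochore, was at 49.7 and 57.4 CPM in the Veh libraries, 77.3 and 83.8 with RA, 59.8 and 59.8 under NR, and 85.6 and 85.2 under NRRA. NR lay below the other libraries for Mad2l1 (-0.29 ± 0.06), whereas Bub1 was highest in NRRA and RA, and its NR difference of 0.16 ± 0.06 was close to the threshold (edgeR adjusted p = 0.0455).

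Kinetochore genes were split in NR. Cenpa, the histone variant of centromeres, stood at 50.9 and 46.8 CPM in the Veh libraries, 50.7 and 50.5 with RA, 38.4 and 37.8 under NR, and 46.8 and 46.9 under NRRA. Nuf2, a subunit of the Ndc80 complex, measured 31.8 and 32.5 CPM in the Veh libraries, 38.3 and 39.7 with RA, 24.4 and 23.9 under NR, and 39.0 and 39.4 under NRRA. Spc24, another subunit, was at 14.4 and 11.1 CPM in the Veh libraries, 18.1 and 17.0 with RA, 10.8 and 9.91 under NR, and 17.6 and 17.5 under NRRA. These 3 fell in NR, by 0.36 ± 0.06, 0.41 ± 0.07 and 0.31 ± 0.11 log2, as did Spc25 by 0.27 ± 0.07 log2. Ndc80, which gives that complex its name, stood at 24.7 and 29.0 CPM in the Veh libraries, 28.3 and 30.2 with RA, 34.3 and 34.2 under NR, and 36.2 and 32.9 under NRRA. Cenpe, a kinetochore motor, measured 70.2 and 70.9 CPM in the Veh libraries, 80.1 and 102 with RA, 89.2 and 84.4 under NR, and 112 and 104 under NRRA. Cenpf, a large kinetochore protein, was at 188 and 185 CPM in the Veh libraries, 168 and 219.8 with RA, 244 and 228 under NR, and 246 and 217 under NRRA. The last 3 genes rose in NR, by 0.35 ± 0.08, 0.30 ± 0.07 and 0.34 ± 0.08. Within the Ndc80 complex, Ndc80 was thus higher and Nuf2, Spc24 and Spc25 were lower in NR than in Veh. The other genes that rose in NR were Mki67, Kif20b, Smc4, Hmmr and Bub1. Of the 8 rises, 1, that of Ndc80, was called by DESeq2 and 4 were called without NR replicate 1, and the call of Spc24 was lost with DESeq2, with library totals, with the compared groups only and without Veh replicate 1 or either NR replicate, with values of -0.47 to -0.09 over libraries left out.

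The promoters of several genes named above carried the short sequences known from cell-cycle genes. The cell cycle genes homology region (CHR, letters TTTGAA) and its variant TTTAAA are bound by the MuvB core, which forms the repressive DREAM complex in resting cells and works with B-Myb and FoxM1 in G2 and M, and the CCAAT box is bound by NF-Y. RefSeq windows from 250 bases before to 50 after the start (GRCm38.p6) were at hand for 38 of the 47 genes, all but Kif20a, Incenp, Foxm1, Spc24, Tpx2, Smc4, Aurkb, Cdc25c and Ccna2. On either strand, TTTGAA or TTTAAA lay between 70 bases before and 30 after the start in 25 of 38 (65.8%), compared with 10.0% of 27025 genes with a window and 6.92% of the 13288 such genes that were tested. CCAAT lay anywhere in the window in 29 of 38 (76.3%), compared with 41.1% of all windows, and occurred at least 2 times in 18 (47.4%), compared with 13.3%. The 120 bases just before the start are printed for 8 genes that stand for the patterns in these data, with CCAAT boxes on either strand and, within 70 bases of the start, TTTGAA or TTTAAA on either strand in capitals. Cdk1 (chr10:69352913-69353032, minus strand), Ccnb1 (chr13:100786487-100786606, minus strand), Plk1 (chr7:122159315-122159434, plus strand) and Cdc20 (chr4:118437344-118437463, minus strand) fell in NR and NRRA, and Birc5 (chr11:117849117-117849236, plus strand) fell in NR and was not called in RA or NRRA. Espl1 (chr15:102296173-102296292, plus strand) fell in RA and NRRA, Smc2 (chr4:52439101-52439220, plus strand) rose in both, and Top2a (chr11:99024190-99024309, minus strand) is shown as a gene near the threshold. Its difference in NRRA, 0.12 ± 0.05, was called higher, with the call lost with DESeq2, with RLE size factors, with the compared groups only and without Veh replicate 1 or either NRRA replicate (0.04 to 0.19 over libraries left out), and it was -0.11 and called lower after removal of a trend on GC content and length.
Cdk1: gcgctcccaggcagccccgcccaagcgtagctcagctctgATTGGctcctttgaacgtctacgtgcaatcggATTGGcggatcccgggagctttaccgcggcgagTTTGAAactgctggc
Ccnb1: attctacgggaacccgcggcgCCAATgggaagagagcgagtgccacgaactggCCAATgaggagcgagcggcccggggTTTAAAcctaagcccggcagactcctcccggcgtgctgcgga
Plk1: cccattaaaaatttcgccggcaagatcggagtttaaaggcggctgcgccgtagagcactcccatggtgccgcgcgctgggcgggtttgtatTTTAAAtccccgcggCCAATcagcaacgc
Cdc20: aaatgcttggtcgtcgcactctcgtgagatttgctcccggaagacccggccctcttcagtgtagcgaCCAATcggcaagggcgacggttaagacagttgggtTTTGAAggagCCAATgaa
Birc5: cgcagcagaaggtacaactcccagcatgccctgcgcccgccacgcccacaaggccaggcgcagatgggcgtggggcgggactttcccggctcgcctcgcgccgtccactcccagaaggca
Espl1: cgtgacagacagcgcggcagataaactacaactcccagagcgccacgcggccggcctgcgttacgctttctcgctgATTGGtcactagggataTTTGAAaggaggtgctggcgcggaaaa
Smc2: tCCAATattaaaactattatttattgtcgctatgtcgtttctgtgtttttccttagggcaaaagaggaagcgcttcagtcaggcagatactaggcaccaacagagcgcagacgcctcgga
Top2a: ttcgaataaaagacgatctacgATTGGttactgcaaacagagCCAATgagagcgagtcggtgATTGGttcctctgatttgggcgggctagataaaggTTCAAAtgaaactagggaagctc
Cdk1, Ccnb1, Plk1 and Cdc20 show both elements, as do Espl1 and Top2a, whereas the Birc5 stretch holds neither in capitals and the Smc2 stretch only a CCAAT box at its far end. The shares of genes with these elements were similar in those that fell in NR and in the others, with no test of the difference. TTTGAA or TTTAAA near the start was found in 12 of 19 (63.2%) genes that fell in NR and in 13 of 19 (68.4%) of the others. CCAAT was found in 15 of 19 (78.9%) and in 14 of 19 (73.7%). Only 19 of the 26 genes that fell in NR had a window, so that Kif20a, Incenp, Foxm1, Spc24, Tpx2, Aurkb and Ccna2 were left out.

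**Figure D2:**
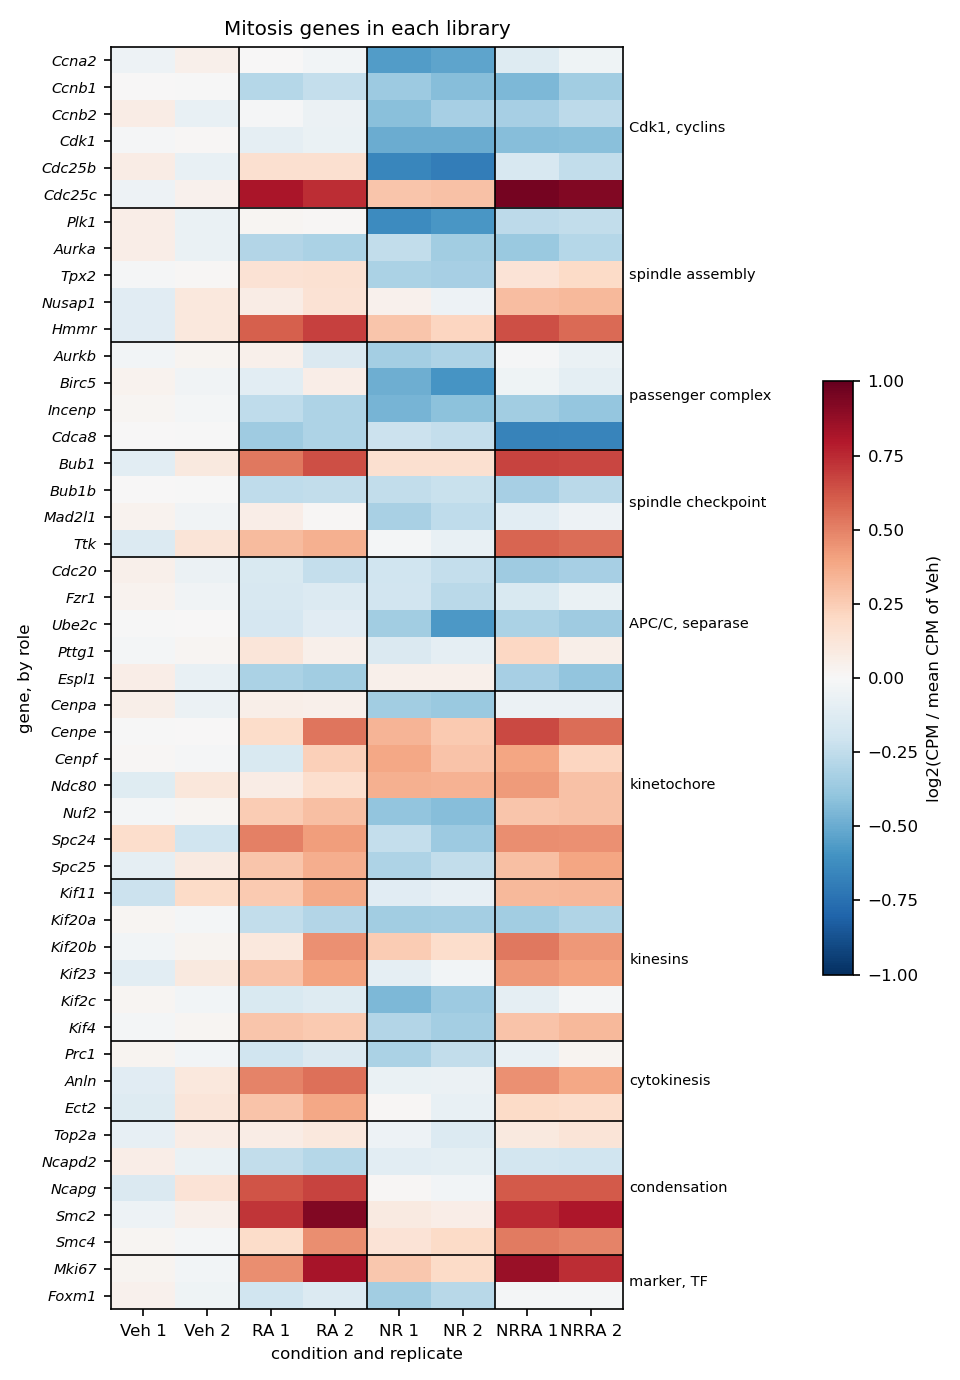
Level of each mitosis gene (rows, grouped by role) in each of the 8 libraries (columns), as log2 of its CPM over the mean CPM of Veh, from blue (lower) through white to red (higher). The NR columns are mostly blue in the upper rows, where the cyclins, Plk1 and the passenger complex stand, and the RA and NRRA columns are red for Cdc25c, Hmmr, Bub1, Ncapg, Smc2 and Mki67.

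With retinoic acid in complete medium, mitosis genes were called in both directions, the falls in a share near that of all tested genes. Of the 47, 19 (40.4%) rose and 13 (27.7%) fell relative to Veh, against 19.8% higher and 23.4% lower among all tested genes. The median was 0.08 log2 beside -0.02 over all genes. Genes of chromosome condensation, the kinetochore, kinesins and cytokinesis made up most of those that rose. Smc2, an ATPase of condensin, stood at 57.9 and 61.9 CPM in the Veh libraries, 98.4 and 114 with RA, 63.8 and 62.7 under NR, and 100.2 and 105 under NRRA. Ncapg, a condensin I subunit, measured 53.2 and 64.6 CPM in the Veh libraries, 91.3 and 94.3 with RA, 59.5 and 58.0 under NR, and 90.4 and 90.2 under NRRA. Both were higher in RA and NRRA than in Veh and NR without overlap, by 0.83 ± 0.06 and 0.66 ± 0.06 in RA. Mki67, the Ki-67 protein that coats mitotic chromosomes and marks proliferating cells, was at 189.9 and 183 CPM in the Veh libraries, 257 and 329.6 with RA, 225 and 214 under NR, and 340.3 and 311 under NRRA. The 2 RA libraries differed, and both lay above Veh and NR, with a difference from Veh of 0.66 ± 0.07 (edgeR adjusted p = 2.3e-08). Top2a, topoisomerase II alpha, stood at 252 and 281 CPM in the Veh libraries, 281 and 287 with RA, 257 and 243 under NR, and 286 and 292 under NRRA. It was not called in RA (0.09 ± 0.05), nor was Cenpf, whose RA libraries lay on either side of Veh.

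Kif11, the kinesin that separates the spindle poles, measured 53.5 and 70.8 CPM in the Veh libraries, 74.5 and 80.7 with RA, 57.6 and 58.6 under NR, and 77.9 and 78.2 under NRRA. The Veh libraries were far apart, and both lay below those of RA and NRRA. Kif20a, a kinesin of the central spindle, was at 149 and 146 CPM in the Veh libraries, 124 and 121 with RA, 116 and 117 under NR, and 116 and 119.8 under NRRA. It was the kinesin with the largest fall in RA, and all 6 treated libraries lay below Veh. Prc1, which bundles microtubules of the central spindle, stood at 70.8 and 68.5 CPM in the Veh libraries, 60.7 and 63.0 with RA, 56.0 and 58.6 under NR, and 66.3 and 70.9 under NRRA. RA and NR lay below Veh, while NRRA overlapped Veh. Anln and Ect2, which position the contractile ring, rose in RA by 0.53 ± 0.06 and 0.34 ± 0.07. The 3 largest falls in RA were those of Cdca8 (-0.33 ± 0.05), Espl1 (-0.33 ± 0.05) and Aurka (-0.31 ± 0.07), followed by Incenp, Kif20a, Ncapd2, Ccnb1, Bub1b and Cdc20. Foxm1, a transcription factor of G2 and M genes, measured 115 and 108 CPM in the Veh libraries, 96.9 and 101 with RA, 87.5 and 91.9 under NR, and 109.6 and 109 under NRRA. It fell in RA by 0.17 ± 0.05 log2 and in NR by 0.31 ± 0.05 log2, and in NRRA it overlapped Veh. Over the same comparison all 8 markers of undifferentiated spermatogonia fell, 6 of 9 fibroblast markers fell and 1 rose, and 4 of 6 markers of differentiating spermatogonia rose, with Sohlh1 (-0.03 ± 0.08) and Dmrtb1 (-0.25 ± 0.20) not called. Their part in the result was not tested. Of those that rose, Kit and Stra8 went from 6.31 and 6.34 to 203 and 212 CPM and from 1.14 and 1.51 to 632 and 653 CPM. With library totals in place of composition scaling, the split in RA was 25 higher and 8 lower, and without Veh replicate 1 the number lower was also 8. Cdc20, Prc1, Foxm1, Fzr1 and Kif2c were the calls lost there. With library totals 27.1% of all tested genes were higher and 14.8% lower in RA, so the calls of all genes moved as well.

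The combined treatment also moved the genes in both directions. In NRRA relative to Veh, 23 of 47 (48.9%) rose and 14 (29.8%) fell, against 30.1% higher and 28.7% lower among all tested genes, so that the share that fell was near the background. Of the kinetochore genes 6 of 7 rose, with Cenpa not called, and of the condensation genes 4 of 5 rose, with Ncapd2 lower. The 3 largest rises were those of Cdc25c (0.94 ± 0.11, edgeR adjusted p = 2.65e-08), Mki67 (0.80 ± 0.07) and Smc2 (0.78 ± 0.06). Cdca8, the borealin subunit of the passenger complex, was at 76.0 and 75.9 CPM in the Veh libraries, 59.5 and 61.2 with RA, 65.5 and 64.5 under NR, and 47.9 and 47.9 under NRRA. It fell in steps, lower in RA and NR than in Veh and lowest in NRRA, where the difference from Veh was -0.66 ± 0.05 (edgeR adjusted p = 4.43e-11). The next largest falls were those of Cdk1 (-0.42 ± 0.07) and Ccnb1 (-0.39 ± 0.05). Aurka, Bub1b, Ccnb1, Cdc20, Cdca8, Incenp and Kif20a were called lower, and Bub1, Cenpe, Hmmr, Kif20b, Mki67 and Smc4 higher, in each of RA, NR and NRRA, 3 comparisons that share the Veh libraries. The share of all tested genes with either pattern was not computed. After removal of a trend on GC content and length, Kif20b (-0.038), Bub1 (-0.0072), Smc4 (-0.042) and Hmmr (0.089) were not called higher in NR. Cenpe (0.15, edgeR adjusted p = 0.0438) and Mki67 (0.15, edgeR adjusted p = 0.0373) still were, near the threshold. DESeq2 called neither higher in NR. Fibroblast markers (6 of 9 higher, 3 lower) moved in this comparison as well. So did markers of undifferentiated spermatogonia (7 of 8 lower) and of differentiating spermatogonia (5 of 6 higher, 1 lower). The part of these markers in the result was not tested.

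**Figure D3:**
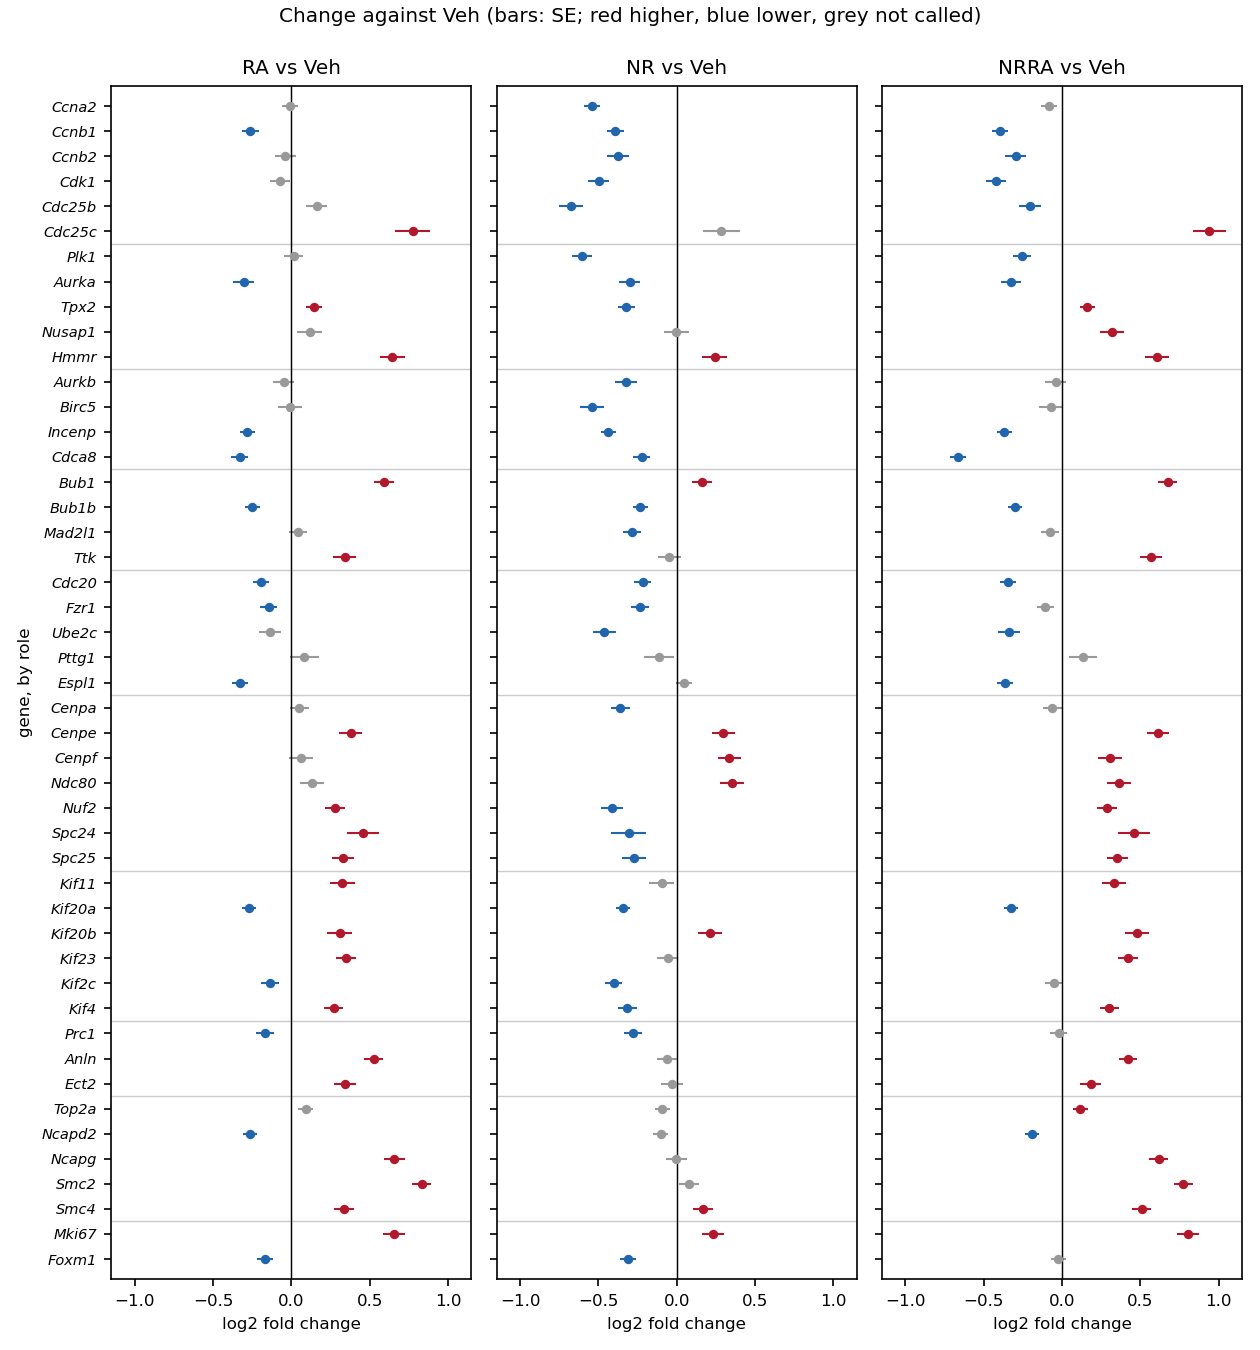
Difference from Veh of each mitosis gene in RA, NR and NRRA (panels), as log2 fold change with bars of 1 SE, grouped by role. Red points were called higher, blue points lower and grey points neither, and the blue points are most numerous in NR, where 26 genes fell.

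Rises and falls differed in the composition of the transcripts. The median GC content of the longest transcript of each gene was 42.6% in the 23 genes that rose in NRRA and 52.7% in the 14 that fell. Across the 47 genes, Pearson's r between GC content and the log2 fold change was -0.64 in NRRA vs Veh, -0.62 in RA vs Veh and -0.53 in NR vs Veh, and across 20448 tested genes it was -0.18, -0.19 and -0.17. These are descriptions across genes read in the same libraries. The genes that rose were also longer, with a median of 5514 bases of exon compared with 4246 for those that fell in NRRA. After a trend on GC content and length was removed from each library, 13 of the 23 genes that rose in NRRA and 3 of the 8 that rose in NR were still called higher, whereas 13 of the 14 that fell in NRRA and all 26 that fell in NR were still called lower. In RA, 13 of the 19 rises and 10 of the 13 falls were still called. In that fit 13 of all 47 genes were higher and 18 lower in NRRA, against 27.6% and 32% of all tested genes. The share that rose in NRRA was thus near the background. In NR 3 were higher and 33 lower, against 20.6% and 25.4%. In RA 14 were higher and 13 lower, against 17.9% and 25.3%. The genes no longer called higher in NRRA were Nusap1, Cenpf, Ndc80, Nuf2, Spc25, Kif11, Kif20b, Ect2, Top2a and Ncapg. Whether the trend is technical or belongs to the cells was not tested.

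Adding nutrient restriction to retinoic acid changed the mitosis genes in shares near those of all tested genes. In NRRA relative to RA, 8 of 47 (17.0%) rose and 8 (17.0%) fell, against 20.9% higher and 19.4% lower among all tested genes, and 31 were not called. Of the 8 falls 4 lay in the group of Cdk1, cyclins and Cdc25 phosphatases. The largest were Cdc25b (-0.37 ± 0.07), Cdk1 (-0.35 ± 0.06) and Cdca8 (-0.33 ± 0.05), followed by Plk1, Ccnb2, Ube2c, Cdc20 and Ccnb1. The largest rises were those of Cenpf (0.25 ± 0.07), Cenpe (0.23 ± 0.07) and Ndc80 (0.23 ± 0.07). None of the 8 rises was called by DESeq2 or without RA replicate 1, where edgeR with all libraries gave 10 at an unadjusted p under 0.05. The number higher was 1 without NRRA replicate 1 and 4 without NRRA replicate 2 or either NR replicate, and the number lower was 4 without NRRA replicate 1, 5 without RA replicate 1 and 13 without either Veh replicate. Fibroblast markers (7 of 9 higher, 2 lower) and germ cell markers (5 of 5 higher) moved in this comparison as well. So did markers of undifferentiated spermatogonia (5 of 8 lower, 2 higher) and of differentiating spermatogonia (3 of 6 higher, 1 lower). The part of these markers in the result was not tested. RA replicate 1 was the lower of the 2 RA libraries for Cenpf, Mki67, Cenpe, Kif20b and Smc4.

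In restricted medium, retinoic acid raised most of the mitosis genes. In NRRA relative to NR, 32 of 47 (68.1%) rose and 2 (4.26%) fell, against 21.3% higher and 22.1% lower among all tested genes, with a median of 0.30 log2 beside 0.01. The largest rises were those of Spc24 (0.77 ± 0.10, edgeR adjusted p = 5.9e-07), Nuf2 (0.70 ± 0.06) and Smc2 (0.70 ± 0.06), and the 2 falls were those of Cdca8 (-0.44 ± 0.05) and Espl1 (-0.41 ± 0.05). This comparison and that of NR with Veh share the NR libraries, so a gene read low in them is lower in one and higher in the other. Among genes called lower in NR and higher in NRRA relative to NR, Ccna2, Birc5, Aurkb, Cenpa, Foxm1 and Prc1 were not called in NRRA against Veh, Kif4, Nuf2, Spc24, Spc25 and Tpx2 were above Veh, and Plk1 and Cdc25b were below Veh. Cdk1, Ccnb1, Ccnb2, Cdc20, Aurka and Kif20a were lower in NR than in Veh and were not called higher in NRRA relative to NR. Fibroblast markers fell in 8 of 9 cases in this comparison, with Col1a1 not called. All 8 markers of undifferentiated spermatogonia fell, and of 6 markers of differentiating spermatogonia 4 rose and 2 fell. Of 5 germ cell markers 3 fell and 1 rose. The part of these shifts in cell markers in the result was not tested. The 2 falls became 4 without either Veh replicate.

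The response to retinoic acid differed between the media for 16 of the 47 genes (34.0%), all toward a higher response in restricted medium, against 6.37% higher and 6.58% lower among all tested genes. No gene had a called interaction in the other direction by edgeR or DESeq2, and 1, Hmmr, had one at an unadjusted p under 0.05, while 4 were called without Veh replicate 2, 2 without RA replicate 1 and 1 without Veh replicate 1. In complete medium retinoic acid lowered 7 of the 16, raised 4 and left 5 not called. In restricted medium Ccnb1 (-0.0020), Kif20a (0.017), Incenp (0.069) and Fzr1 (0.13), all lower in RA than in Veh, were not called. All 16 were called lower in NR relative to Veh, a comparison that shares the NR libraries. Kif2c, a kinesin that depolymerizes microtubules, stood at 70.2 and 68.0 CPM in the Veh libraries, 62.3 and 63.3 with RA, 50.7 and 53.7 under NR, and 65.0 and 68.2 under NRRA. It fell in NR, overlapped Veh in NRRA and was at the threshold in RA (edgeR adjusted p = 0.0499), with the largest interaction, 0.49 ± 0.08 (edgeR adjusted p = 7.52e-05). Birc5 (0.48 ± 0.11) and Ccna2 (0.47 ± 0.07) followed, both called lower against Veh in NR and not called in RA or NRRA. Foxm1 (0.45 ± 0.07) and Prc1 (0.43 ± 0.08) fell in RA and rose in NRRA relative to NR. The count of called interactions was 9 without NR replicate 1 and 8 without NR replicate 2.

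**Figure D4:**
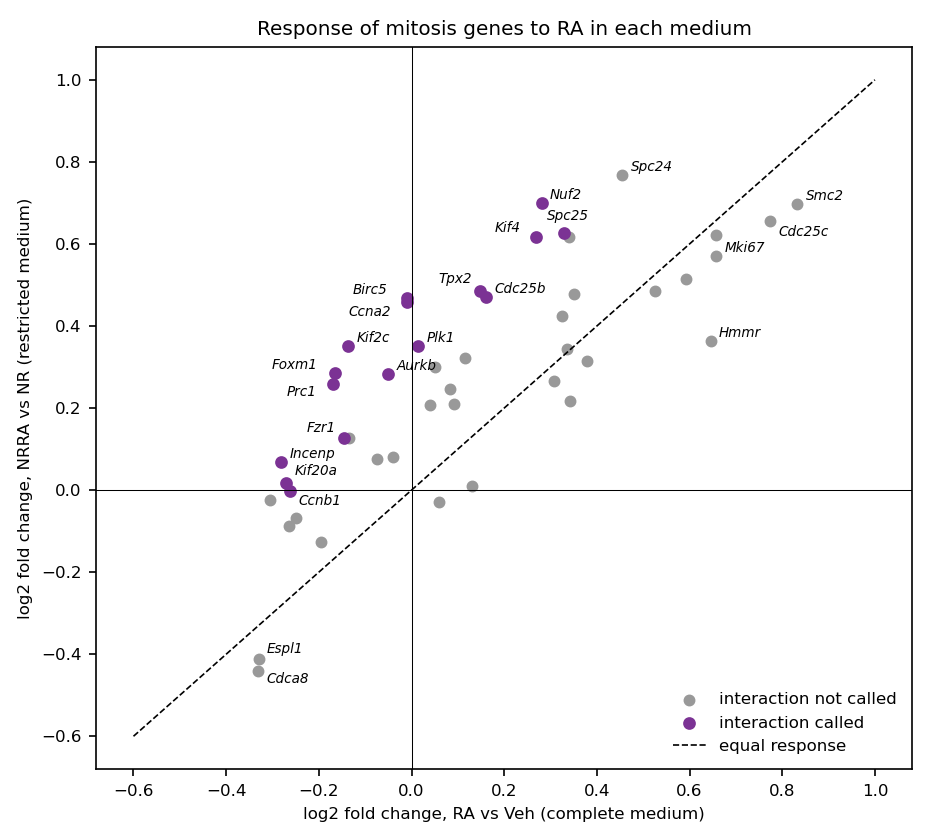
Response of each mitosis gene to retinoic acid in complete medium (horizontal axis, RA vs Veh) and in restricted medium (vertical axis, NRRA vs NR), both as log2 fold change. Purple points are the 16 genes with a called interaction, which lie above the dashed line of equal response, and grey points are the other genes.

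Other genes of the cell cycle were read alongside. Of 91 further mitotic genes, 28 (30.8%) fell and 11 (12.1%) rose in NR relative to Veh, against 22.2% and 21.7% of all tested genes. In RA 17 (18.7%) fell and 27 (29.7%) rose, against 23.4% and 19.8%. In NRRA 25 (27.5%) fell and 34 (37.4%) rose, against 28.7% and 30.1%, so that the share that fell was near the background. In NRRA relative to NR 43 of the 91 (47.3%) rose and 11 (12.1%) fell, against 21.3% and 22.1% of all tested genes. A higher response to retinoic acid in restricted medium was called for 15 (16.5%) and a lower one for 4 (4.4%), against 6.37% and 6.58%. Knl1, a kinetochore scaffold, rose most in NRRA (1.16 ± 0.09), before Kif15 (0.90 ± 0.06) and Depdc1a (0.84 ± 0.20), and Trip13 (-0.71 ± 0.06), Arhgef39 (-0.65 ± 0.16) and Zwint (-0.59 ± 0.04) fell most. Of 36 DNA replication genes, 27 (75%) fell and 3 (8.33%) rose in NR, and 14 (38.9%) fell and 4 (11.1%) rose in RA. In NRRA 20 (55.6%) fell and 5 (13.9%) rose. In NRRA relative to NR 17 of the 36 (47.2%) rose and 4 (11.1%) fell. A higher response to retinoic acid in restricted medium was called for 21 (58.3%) and a lower one for 2 (5.56%). The share with a higher response was above the 34.0% of the mitosis genes, with no test of that difference. Ccne2, cyclin E2, rose by 0.94 ± 0.09 in NRRA, as did Gmnn (0.39 ± 0.07), the inhibitor of origin licensing, and Pola1 (0.30 ± 0.08), whereas Gins3 (-0.58 ± 0.10), Mcm10 (-0.58 ± 0.06) and Tk1 (-0.57 ± 0.09) fell.

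Genes of factors that bind cell-cycle promoters moved in both directions. Of 13 DREAM and MuvB genes, 3 (23.1%) fell and 2 (15.4%) rose in NR, against 22.2% and 21.7% of all tested genes. In NRRA 2 (15.4%) fell and 6 (46.2%) rose, against 28.7% and 30.1%. In that comparison Lin52 (0.45 ± 0.14), E2f5 (0.34 ± 0.09) and Lin54 (0.32 ± 0.07) rose most, and E2f4 (-0.30 ± 0.05) and Tfdp1 (-0.15 ± 0.05) fell. Of 7 further E2F and pocket protein genes, 3 (42.9%) fell and 1 (14.3%) rose in NR, and 4 (57.1%) fell and 2 (28.6%) rose in NRRA. Rb1, the retinoblastoma protein, rose in NRRA (0.60 ± 0.06) and in NR, and the repressor E2f8 fell in NR (-0.99 ± 0.07) and in NRRA (-0.53 ± 0.07). Of the 3 NF-Y subunits, Nfya fell in NRRA (-0.63 ± 0.05), Nfyc rose (0.16 ± 0.06) and Nfyb was not called. Exons of Kif20a overlap those of Cdc23 over 29.3% of their length, and the overlap was 22.8% for Ube2c, 15.1% for Kif4, 13.4% for Ncapg, 12.7% for Cdc25c, 12.5% for Ccna2, 11.1% for Prc1 and 7.09% for Plk1. Reads in these stretches, and reads of Ccnb1, Ccnb2 and Kif4 that match their pseudogenes, may be split or shared, so these counts are less certain.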

How the data were processed

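RNA-seq counts of 8 SSC culture libraries, 2 per condition, were used. The authors mapped the reads and deposited a table of raw counts per gene, whole numbers without normalization. The submitters' processing notes name bcl2fastq, STAR 2.6.1c, featureCounts 1.6.4 and mm10, while the paper names another release of STAR. The use of the strand in counting is not given in the sources used here. Every column was matched to its library by the sample title.

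Counts were filtered with edgeR's filterByExpr, scaled with TMM and fitted in R 4.3.3 with edgeR 4.0.16, with 1 coefficient per condition over all 8 libraries. The 5 pairwise comparisons described and the interaction (NRRA minus NR against RA minus Veh) were tested with the quasi-likelihood F test and adjusted by Benjamini-Hochberg over 20477 genes, at 0.05. The SE is the absolute log2 fold change over the square root of F. With 2 libraries per condition, 4 residual degrees of freedom stood behind each test, before the spread was shared across genes.

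GENCODE M21 (GRCm38) gave coordinates, exon overlap, GC content and exon length, with 55240 of 55421 identifiers matched, and RefSeq gave the promoter windows. Alternatives were DESeq2 1.42.0, other scaling factors, no filter, a 2-fold threshold, the compared groups only, a replicate block, leaving out each library and, added after seeing the data, removal of a trend on GC content and length. All members could be named. Values by library are given for a preset list of them and for the 3 called genes that rose and fell most in each comparison, and other genes were named by their rank in NRRA vs Veh. Members and lists were chosen with earlier results of these data known.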

Additional observations from a re-analysis of the deposited data

Results flagged for a closer look

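The response to retinoic acid in restricted medium (NRRA vs NR) was higher than that in complete medium (RA vs Veh) for 16 mitosis genes by edgeR's test of the interaction. All 16 were also called lower in NR relative to Veh, and Ccnb1, Kif20a, Incenp and Fzr1 were not called in NRRA vs NR. The difference of the log2 responses was 0.49 for Kif2c, 0.48 for Birc5, 0.47 for Ccna2, 0.45 for Foxm1, 0.43 for Prc1 and 0.42 for Nuf2. It was 0.35 for Incenp and for Kif4, 0.34 for Tpx2 and for Plk1, 0.33 for Aurkb and 0.31 for Cdc25b. The smallest called differences were 0.30 for Spc25, 0.29 for Kif20a, 0.27 for Fzr1 and 0.26 for Ccnb1. DESeq2 called 11 of these 16, without Ccnb1, Cdc25b, Aurkb, Fzr1 and Spc25. With 2 libraries per condition, single libraries were not tested for standing apart.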

How the results depend on the processing

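With 2 libraries per condition, differences of about 0.2 log2 lie near the threshold, and counts of calls move most where differences are small. A fold threshold of 2 left 0 calls, higher or lower, in every comparison and the interaction. DESeq2 gave 1 gene higher in NR vs Veh and 0 higher in NRRA vs RA. It called 8.09% and 7.15% higher among all genes with any count, a larger set than the tested genes. Library totals gave 8 lower in RA vs Veh, beside 14.8% of all tested genes. They shifted the median of all genes by 0.10 in RA vs Veh and 0.11 in NRRA vs Veh (log2). Without the filter 5 were lower in NRRA vs RA, beside 9.36% of all genes with any count. With the compared groups only 13 were lower in NRRA vs RA and 4 in NRRA vs NR, beside 22.1% and 25.5% of all genes tested there. Removal of the GC content and length trend gave 3 higher in NR vs Veh, 13 higher in NRRA vs Veh and 15 lower in NRRA vs RA. The shares of all tested genes in that fit were 20.6%, 27.6% and 23.7%. It turned the median of the mitosis genes to -0.0061 in RA vs Veh and -0.0032 in NRRA vs Veh. Under it, values changed sign in RA vs Veh for Mad2l1 (-0.27), Cenpf (-0.16), Kif20b (-0.012) and Top2a (-0.082). In NR vs Veh they did so for Bub1 (-0.0072), Kif20b (-0.038), Smc2 (-0.15) and Smc4 (-0.042), and in NRRA vs Veh for Cenpf (-0.0094), Nuf2 (-0.0032), Ect2 (-0.17) and Top2a (-0.11). The median in NRRA vs RA, near 0 in the main fit, was -0.015 with DESeq2, -0.015 with RLE size factors, -0.041 without the GC content and length trend and -0.0038 with the compared groups only. The cause of these changes was not tested. Leaving out 1 library at a time, the number lower in RA vs Veh was 8 to 12, higher in NR vs Veh 4 to 8, higher in NRRA vs RA 0 to 8, lower in NRRA vs RA 4 to 13, lower in NRRA vs NR 2 to 4, higher in the interaction 8 to 19 and lower in it 0 to 4. The median in NRRA vs RA was -0.016 to 0.019, and Ncapg in NR vs Veh was -0.12 to 0.15. The replicate numbers did not pair the libraries, with correlations of deviations between -0.033 and 0.023 for same-numbered libraries, and with a replicate block 8 genes were higher and 26 lower in NR vs Veh and 23 higher and 14 lower in NRRA vs Veh, as without it.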
